A study of Mus musculus with 4 samples.

Results

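Accessible chromatin was described at 8 mouse gene loci with intervals called in monocytes and not, or at a lower level, in myeloid progenitors: Camk2d, Frmd4a, Nedd4l, Dner, Cped1, Anxa5, App and Clec16a. They are 8 of 21887 protein-coding gene loci, each taken as the gene body plus 20 kb on either side, and the 8 span 2547 kb. The genes were picked by hand for monocyte-only or monocyte-high intervals, so the difference between monocytes and progenitors at these loci is what chose them. It is given here as a description, with no test and as support for nothing. The difference between genotypes was not used in the choice.

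The study profiled bone marrow-derived cells of C57BL/6J mice by Omni-ATAC-seq, where a transposase cuts DNA that nucleosomes leave free. Each of 4 groups has 1 library: monocytes, and progenitors that the labels give as common myeloid together with granulocyte-monocyte progenitor cells (CMP/GMP), each as wild type (WT) and as Cxcr3-/-. The gene Cxcr3 codes for a chemokine receptor, and the series concerns macrophages in a liver cancer that is induced in these mouse lines with diethylnitrosamine and tetrachloromethane. The labels give hepatocellular carcinoma as the disease state of all 4 groups, whereas the design text says that the cells of this assay were cultured in vitro. Whether the donor mice had been treated, their age and how many were pooled are not given in the sources used here. With 1 library per group no difference below has a replicate check, no p-value is given, and every interval covers counting error only.

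Depth, read from the background that the authors' caller had estimated, was 135 tags per 10 kb for WT and 194 for Cxcr3-/- CMP/GMP, and 95.6 and 97.2 for the monocyte libraries. The authors called 69521 and 80171 intervals in CMP/GMP and 98257 and 78244 in monocytes. Here and below, values of a cell type are given for WT first and Cxcr3-/- second, and 4 values in a row are CMP/GMP and then monocytes. The targeted gene Cxcr3 (chrX:101731535-101734147) had called intervals over its body in every library, 1 and 2 in CMP/GMP and 2 and 1 in monocytes. The labels do not say which stretch was deleted, so these intervals neither check nor contradict the genotype labels. The cell labels were set against marker genes. Loci of 13 monocyte and macrophage markers held 25 regions called in both monocyte libraries and neither CMP/GMP library and 5 of the opposite kind. Loci of 10 progenitor markers held 7 and 23. Over all regions the 2 kinds numbered 17362 and 8764. The monocyte markers Cx3cr1 and Ly6c2 were among those with no region of the first kind, and the 4 B cell markers and the 2 dendritic cell markers had none. Megakaryocyte markers held 5, all at Pf4, endothelial markers 4, T cell, erythroid and neutrophil markers 2 each, and mast and basophil markers 1. In that order, they held 4, 2, 0, 2, 5 and 6 of the opposite kind. The part of such cells in the results was not tested.

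Regulatory DNA of a gene comprises the promoter at its transcription start and distal elements such as enhancers, which can lie far inside the gene or outside it. As haematopoietic progenitors become monocytes, lineage transcription factors such as PU.1 and C/EBP proteins bind distal elements, which gain accessibility, while promoters tend to be accessible in many cell types. In a pool of cells, more open cells and more openness per cell cannot be told apart. An accessible interval shows where the transposase could cut and gives neither the level of the transcript nor the gene that an element acts on.

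Annotated starts were examined first. RefSeq windows of GRCm38.p6, the assembly of mm10, held 10 starts of 7 of the genes, of which 4 belonged to Frmd4a, and none was used for Nedd4l. The 250 bases before the start are printed for Camk2d, Anxa5 and App, whose starts were called in all 4 libraries, and for the 4 starts of Frmd4a, which differ in accessibility. Sequences read 5′ to 3′ on the gene's strand, and capitals mark CpG dinucleotides.
Camk2d start, chr3:126596701-126596950, plus strand: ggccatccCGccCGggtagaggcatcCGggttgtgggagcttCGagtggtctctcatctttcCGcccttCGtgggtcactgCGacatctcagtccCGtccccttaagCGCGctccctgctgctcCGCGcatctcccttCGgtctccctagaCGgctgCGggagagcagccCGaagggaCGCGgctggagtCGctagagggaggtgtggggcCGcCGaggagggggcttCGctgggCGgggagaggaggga
Anxa5 start, chr3:36475888-36476137, minus strand: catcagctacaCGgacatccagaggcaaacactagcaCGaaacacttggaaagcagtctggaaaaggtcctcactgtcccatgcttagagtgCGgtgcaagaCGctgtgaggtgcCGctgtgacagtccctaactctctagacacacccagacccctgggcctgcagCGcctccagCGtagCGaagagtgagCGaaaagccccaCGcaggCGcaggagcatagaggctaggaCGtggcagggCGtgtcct
App start, chr16:85173708-85173957, minus strand: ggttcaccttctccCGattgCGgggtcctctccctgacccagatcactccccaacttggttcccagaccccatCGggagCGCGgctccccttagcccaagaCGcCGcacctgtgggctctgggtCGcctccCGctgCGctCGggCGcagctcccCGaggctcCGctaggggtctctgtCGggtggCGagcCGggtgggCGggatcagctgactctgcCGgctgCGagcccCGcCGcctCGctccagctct
Frmd4a start 1, chr2:4017433-4017682, plus strand: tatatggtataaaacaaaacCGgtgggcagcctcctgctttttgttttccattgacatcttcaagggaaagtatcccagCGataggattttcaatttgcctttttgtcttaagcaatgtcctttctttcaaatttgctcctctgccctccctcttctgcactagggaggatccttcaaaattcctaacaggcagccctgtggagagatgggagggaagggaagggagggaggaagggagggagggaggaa
Frmd4a start 2, chr2:4152613-4152862, plus strand: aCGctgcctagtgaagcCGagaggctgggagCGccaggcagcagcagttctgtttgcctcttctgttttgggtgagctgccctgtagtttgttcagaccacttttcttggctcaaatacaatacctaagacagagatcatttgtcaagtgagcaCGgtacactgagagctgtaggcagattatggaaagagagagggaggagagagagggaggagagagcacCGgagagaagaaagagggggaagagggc
Frmd4a start 3, chr2:4400726-4400975, plus strand: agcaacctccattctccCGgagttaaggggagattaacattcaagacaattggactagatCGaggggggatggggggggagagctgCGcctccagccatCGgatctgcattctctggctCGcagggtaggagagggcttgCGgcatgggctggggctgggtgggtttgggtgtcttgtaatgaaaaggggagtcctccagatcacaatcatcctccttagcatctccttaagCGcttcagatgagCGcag
Frmd4a start 4, chr2:4559504-4559753, plus strand: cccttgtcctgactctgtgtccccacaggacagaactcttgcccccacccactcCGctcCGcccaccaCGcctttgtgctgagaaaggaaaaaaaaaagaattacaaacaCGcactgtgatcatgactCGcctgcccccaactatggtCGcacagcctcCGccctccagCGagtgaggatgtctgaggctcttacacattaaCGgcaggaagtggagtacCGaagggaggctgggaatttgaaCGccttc

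These sequences differ in CpG number. The printed stretches hold 23 CpG at Camk2d, 23 at App and 13 at Anxa5, and at Frmd4a 2, 5, 8 and 11 from start 1 to start 4. Over the start windows of 300 bases, which add 50 bases after the start, a region was called in any library at 43.9% of 32851 windows and in all 4 libraries at 36.7%. The median number of CpG was 22 in windows with a region in all 4 libraries and 3 in windows with none. Frmd4a, which encodes a FERM-domain scaffold of cell polarity, followed that order within 1 gene: no library had a region over starts 1 and 2, whose windows hold 2 and 8 CpG. At start 3, with 12 CpG, a region was called with 23 and 22 tags in monocytes and with 19 in Cxcr3-/- CMP/GMP, and not in the WT progenitors. At start 4, with 15 CpG, all 4 libraries had one. Between genes the order was not strict: the Cped1 window, also with 12 CpG, had a region in all 4 libraries. The 4 windows of Frmd4a are an example and no test.

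Values below are summit tags, the number of tags stacked at the highest point of a region, recovered as whole numbers from the authors' fold and p. Scaled tags are summit tags divided by a factor per library, so that the median over regions called in all 4 libraries is equal. Start 4 of Frmd4a had 57 and 103 summit tags in CMP/GMP and 92 and 65 in monocytes. In the same order the start region had 75, 113, 94 and 83 summit tags at Camk2d and 191, 311, 214 and 179 at Anxa5. After scaling, the Camk2d and Frmd4a starts stood at similar levels in all 4 libraries, and the Anxa5 start was the highest of the 10 in each. The Anxa5 start region, chr3:36475404-36476101, also covers the start of the neighbouring gene 1810062G17Rik at chr3:36475937. Its level is thus not that of Anxa5 alone.

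The App start had 51, 87, 72 and 41 summit tags and the Clec16a start 88, 126, 78 and 52, again CMP/GMP first. The Dner start had 30, 39, 28 and 18 and the Cped1 start 26, 23, 15 and 20. In the plot of start regions, the scaled points of Clec16a, Dner and Anxa5 were lower in both monocyte libraries than in both CMP/GMP libraries. This is the reverse of the direction in which the loci were chosen. At Clec16a the counting interval of the monocyte-to-CMP/GMP log2 ratio lay below 0 in WT (-1.13 to -0.21) and Cxcr3-/- (-1.22 to -0.25). At Anxa5 it included 0 in Cxcr3-/- (-0.52 to 0.03) and not in WT (-0.62 to -0.04). At Dner, under the minimum of 30 tags used for ratios, it included 0 in both genotypes. Scaling by background tags moved the median WT ratio over all regions from 0.03 to 1.02. A shift of that size reverses the WT direction at these starts. The start regions of Dner and Anxa5 also cover the hairpins of the microRNAs miR-5126 and miR-7009.

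**Figure D1:**
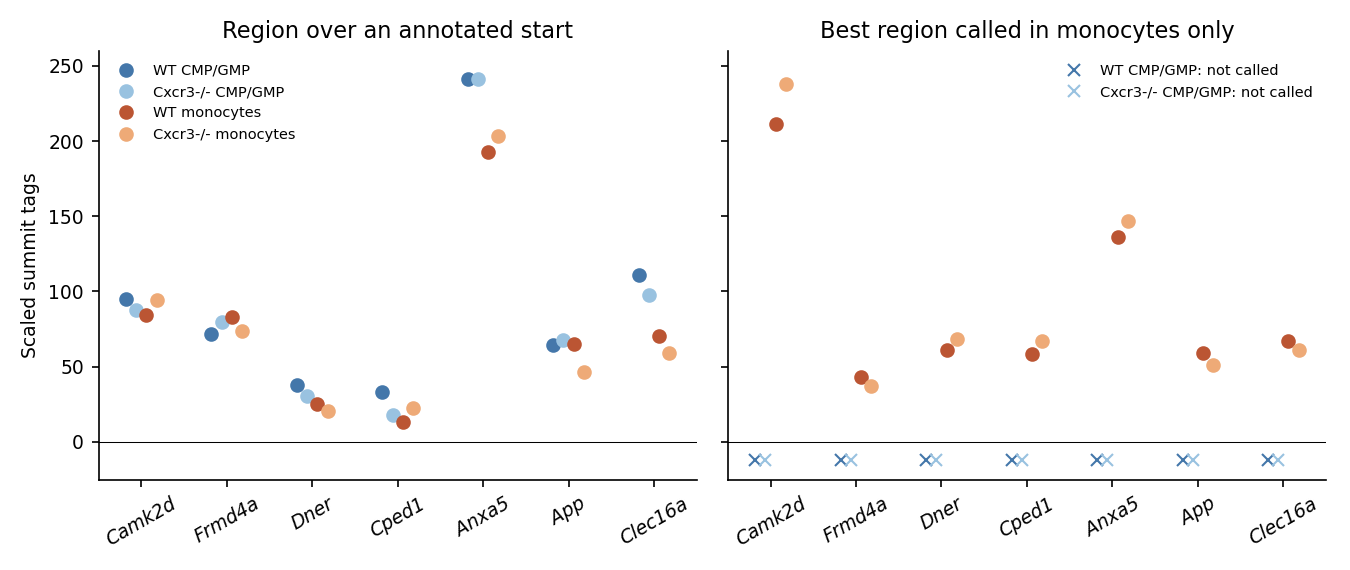
Scaled summit tags (vertical axis) in the 4 libraries at the region over an annotated start, the highest where a gene has several (left), and at the best region called in both monocyte libraries only (right). Crosses below 0 mark libraries with no call and are no value; the best Camk2d region, at 211 and 238 scaled tags, lies above its own start in both monocyte libraries.

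Along the loci, called intervals were more numerous in monocytes. The 8 loci held 114 and 146 intervals in CMP/GMP and 223 and 177 in monocytes. With each list held to its 69521 best intervals, the counts were 114, 128, 168 and 165. Both monocyte libraries thus exceeded both CMP/GMP libraries also at equal list length. Covered DNA was 33118, 44683, 64637 and 53645 bases, and the mean level of an interval was 37.3, 30.9, 35.2 and 44.2 scaled tags, in the same order. Over the full lists, Camk2d had 16, 16, 34 and 28 intervals and Anxa5 5, 5, 10 and 8, whereas Cped1 had 16, 17, 22 and 18. Clec16a was the exception in the order of the full lists, with 13, 20, 22 and 15. Cxcr3-/- monocytes thus had fewer intervals there than Cxcr3-/- CMP/GMP. At equal list length the counts were 16, 16, 15 and 17 at Cped1, 22, 27, 29 and 27 at Frmd4a, and 13, 15, 15 and 14 at Clec16a. In these loci the monocyte libraries did not both exceed both CMP/GMP libraries, and in the other loci they did.

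**Figure D2:**
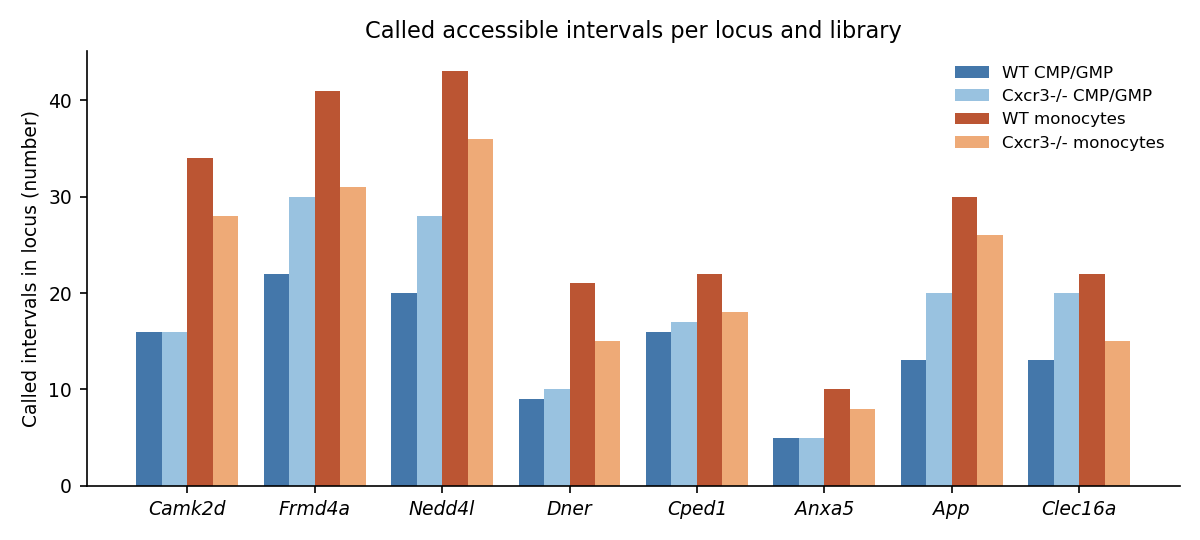
Called intervals (number, vertical axis) in each of the 8 loci, with 1 bar per library, from the full lists, which differ in length. In each locus except Clec16a both monocyte bars lie above both CMP/GMP bars, as with 34 and 28 against 16 and 16 at Camk2d.

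Overlapping intervals of the 4 lists were merged, which gave 258 regions in the 8 loci of 120423 in all. Of the 258, 81 were called in all 4 libraries, 61 in both monocyte libraries and neither CMP/GMP library, and 7 in both CMP/GMP libraries and neither monocyte library. The monocyte-only kind made up 23.6% of the regions of the loci, and 14.4% of all regions. The CMP/GMP-only kind made up 2.71%, and 7.28% of all, and regions called in all 4 libraries 31.4%, and 37% of all. Of the 61 monocyte-only regions, Camk2d held 14 (37.8% of its regions), Nedd4l 13 (25%), App 10 (32.3%), Dner 6 (28.6%) and Anxa5 3 (27.3%). Cped1, Clec16a and Frmd4a held 5 each, or 17.2%, 15.6% and 11.1% of their regions. The Frmd4a share was thus below the 14.4% of all regions. A further 39 regions were called in WT monocytes alone, with a median of 10 summit tags and a highest of 31, and 7 in Cxcr3-/- monocytes alone, with a median of 12. Those called in a single library were thus mostly weak. With single-library regions counted too, Clec16a had 10 regions called only in monocytes and 10 called only in CMP/GMP.

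The 7 regions of the CMP/GMP-only kind lay in 5 loci and were of low level. Frmd4a and Clec16a had 2 each, and Camk2d, Nedd4l and Cped1 had 1 each. The highest, in Clec16a at chr16:10585073-10585635, had 22 summit tags in WT and 36 in Cxcr3-/- CMP/GMP. The Camk2d one, at chr3:126623963-126624193, had 22 and 27. None was seen at Dner, Anxa5 or App.

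**Figure D3:**
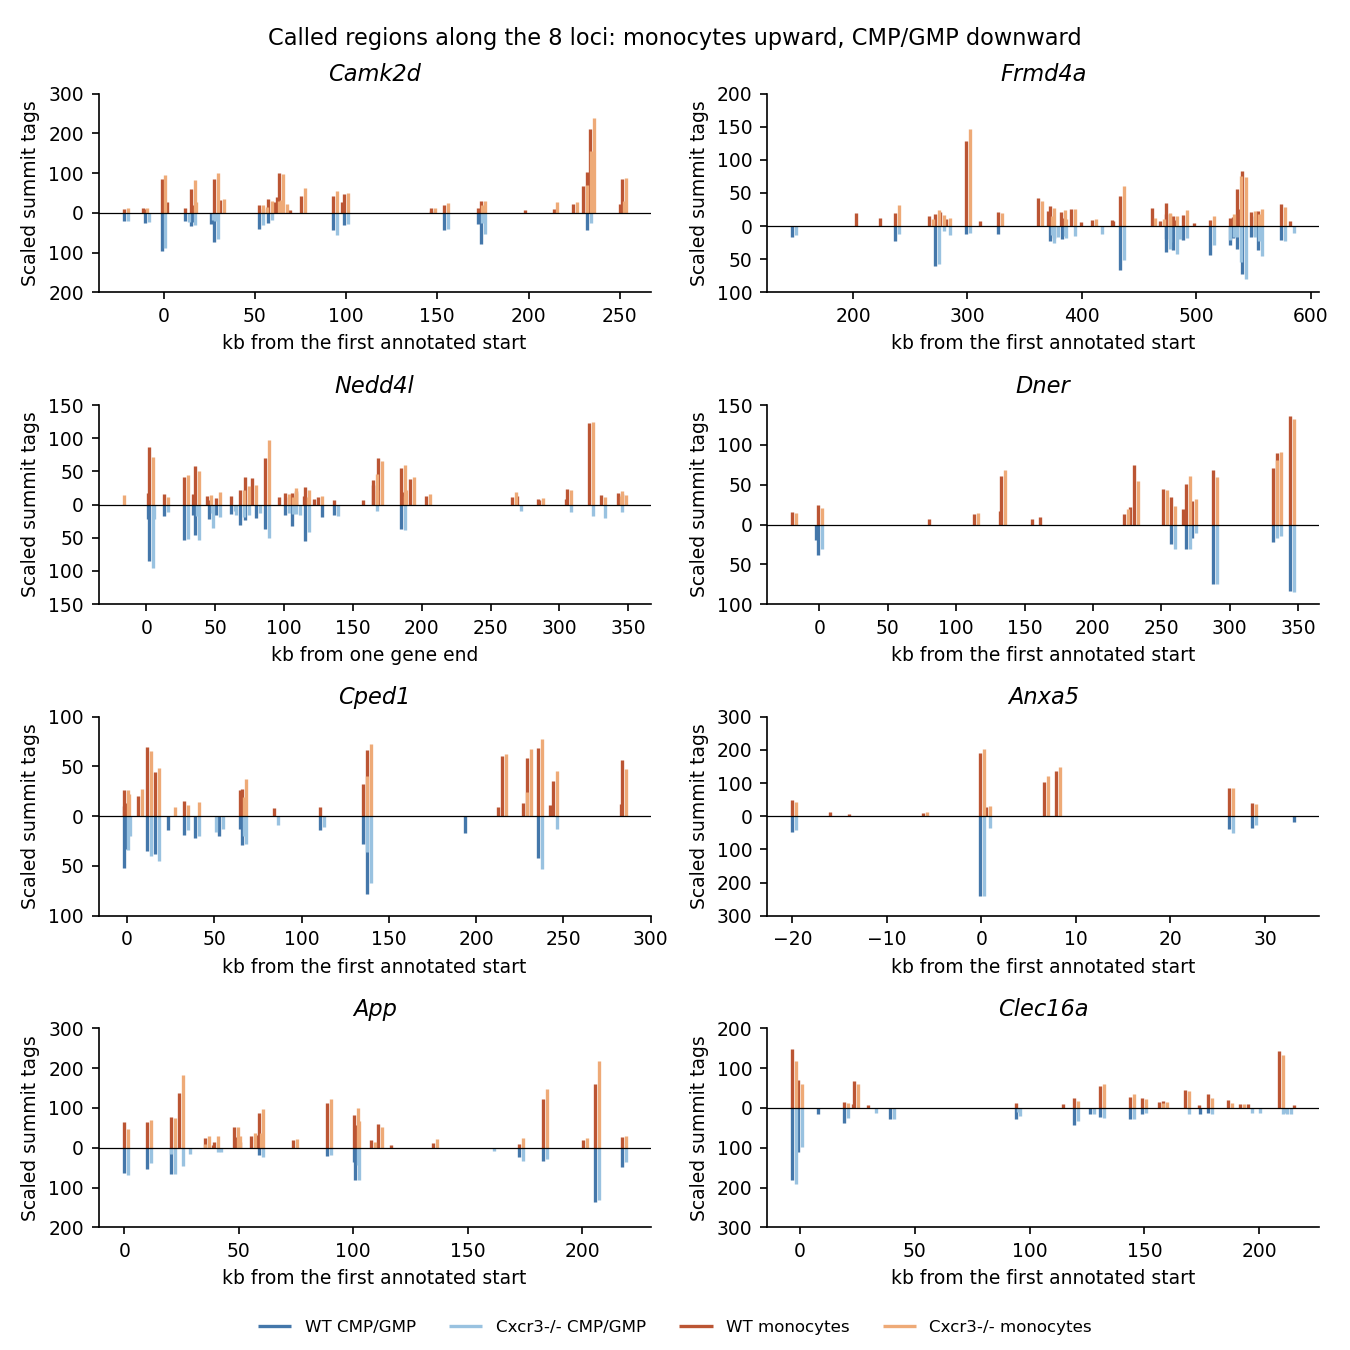
Scaled summit tags of every called region (vertical axis, monocytes upward and CMP/GMP downward) against distance in kb from the first annotated start, or from one gene end at Nedd4l. Tall upward bars with nothing below them are monocyte-only regions, such as the pair 6.8 and 8.1 kb inside Anxa5. Regions over a start at 0, as at Camk2d and App, also reach below the line, and Frmd4a has no region near 0.

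Camk2d encodes the delta chain of calcium/calmodulin-dependent protein kinase II, which turns a calcium signal into phosphorylation of target proteins. Its gene (gene ID 108058) lies at chr3:126595487-126846326, and of its 37 regions 4 were of the monocyte-only kind with a mean level of at least 60 scaled tags, called strong here. The best, chr3:126831386-126831963, lay 234.7 kb downstream of the start inside the gene and had 235 summit tags in WT and 209 in Cxcr3-/- monocytes. It had the highest mean level, 224 scaled tags, among all 17362 regions of its kind. The same scaled level would be 167 tags in WT CMP/GMP and 307 in Cxcr3-/- CMP/GMP, where no interval was called and the weakest call anywhere had 7 and 9 tags.

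The next Camk2d regions by level were chr3:126661035-126661334, 64.2 kb inside the gene, with 112 and 85 summit tags in WT and Cxcr3-/- monocytes, and chr3:126848828-126849174, past the gene's end, with 96 and 77. Neighbouring chr3:126829780-126830148, under 2 kb from the best region, was called in all 4 libraries. It had 34 and 33 summit tags in CMP/GMP and 114 and 137 in monocytes. Monocytes were higher there by a log2 ratio of scaled tags of 1.25 (95% interval 0.69 to 1.85) in WT and 2.61 (2.05 to 3.20) in Cxcr3-/-. Camk2d also held regions in the other direction, such as chr3:126771545-126771988 with 62, 67, 34 and 26 summit tags, a log2 ratio of -1.36 (-2.01 to -0.73) in WT.

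Anxa5 encodes annexin A5, which binds phosphatidylserine in the presence of calcium and serves as a probe for apoptotic cells. Its gene (gene ID 11747, chr3:36448923-36475887, minus strand) is the shortest of the 8 at 27 kb. It held 2 strong monocyte-only regions side by side. The region chr3:36467667-36467997, 8.1 kb inside the gene, had 152 summit tags in WT and 129 in Cxcr3-/- monocytes and came 9th by mean level among the 17362. The region chr3:36468924-36469277, 6.8 kb inside, had 116 and 107 and came 50th. Their levels stayed below that of the Anxa5 start in the same libraries. The neighbouring gene 1810062G17Rik starts within the flank, so the same regions also count for it.

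Nedd4l encodes a HECT-type ubiquitin ligase that marks membrane proteins such as the epithelial sodium channel for removal. The gene (gene ID 83814, chr18:64884480-65217826) had 52 regions, the most of the 8, and 13 of the monocyte-only kind. The best, chr18:65053839-65054120, had 78 summit tags in WT and 58 in Cxcr3-/- monocytes. Near the far end of the gene, chr18:65207339-65207961 had 137 and 109 summit tags in monocytes, 22 in Cxcr3-/- CMP/GMP and no call in the WT progenitors. The Cxcr3-/- monocytes were higher there by 2.86 on the log2 scale (2.19 to 3.59).

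Clec16a encodes a regulator of endosomes, autophagy and mitophagy with ubiquitin ligase activity. The locus (gene ID 74374, chr16:10545309-10744878) also holds Dexi and Ciita, the master activator of MHC class II genes. Its strong monocyte-only region, chr16:10569821-10570217, 24.7 kb inside the gene, had 75 summit tags in WT and 54 in Cxcr3-/- monocytes. A region of higher level that was not monocyte-only lay past the end of Clec16a: chr16:10754451-10755093 had 160 and 117 summit tags in monocytes, 20 in Cxcr3-/- CMP/GMP and no call in the WT progenitors. That is a log2 ratio of 3.10 (2.41 to 3.86) between the Cxcr3-/- libraries, and which of the genes it serves cannot be read from these data.

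App encodes the amyloid precursor protein, a membrane protein that secretases cleave. Its locus (gene ID 11820, chr16:84952666-85175255) had 10 monocyte-only regions but none at 60 scaled tags. The best, chr16:85061724-85062150, had 66 summit tags in WT and 45 in Cxcr3-/- monocytes, and chr16:85124686-85125030 had 59 and 46. App differed from Camk2d and Anxa5 in form: its high monocyte regions were mostly also called, at a lower level, in CMP/GMP. There were 5 such regions, more than at any other of the loci.

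The clearest of them, chr16:85084084-85084637, had 16 and 23 summit tags in CMP/GMP and 125 and 107 in monocytes. Monocytes exceeded CMP/GMP by log2 ratios of 2.47 in WT (1.72 to 3.32) and 2.77 in Cxcr3-/- (2.11 to 3.49). At chr16:85113800-85114269 the same ratios were 2.19 (1.39 to 3.08) and 2.12. The region chr16:84989807-84990357 had 27, 36, 137 and 130 summit tags and ratios of 1.85 and 2.40. In each of these 3 regions the intervals of the genotypes overlapped.

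Dner encodes a membrane protein with EGF-like repeats that is known as a Notch ligand in neurons. The gene (gene ID 227325, chr1:84369839-84696221, minus strand) held 2 strong monocyte-only regions. At chr1:84561875-84562297, 134.1 kb inside the gene, there were 68 summit tags in WT and 60 in Cxcr3-/- monocytes, and at chr1:84464857-84465228, 231.2 kb inside, 83 and 48. Just past the gene's end, chr1:84362943-84363772 had 17, 22, 79 and 71 summit tags in the same order, a log2 ratio of 1.72 (0.95 to 2.57) in WT and 2.24 in Cxcr3-/-.

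Cped1 encodes a protein with cadherin-like and PC-esterase domains. The locus (gene ID 214642, chr6:21985710-22256407) also holds Ing3. Its strong regions were chr6:22216119-22216620, with 65 and 59 summit tags in WT and Cxcr3-/- monocytes, and chr6:22201920-22202328, with 67 and 55. The region chr6:22222026-22222604 was called in all 4 libraries, with 33 and 69 summit tags in CMP/GMP and 76 and 68 in monocytes. With a mean of at least 30 tags, no Cped1 region also called in CMP/GMP was more than 2-fold higher in monocytes of every genotype with a ratio. Below that minimum, chr6:22231223-22231622 had 16 tags in Cxcr3-/- CMP/GMP and 39 and 40 in monocytes. Another region, chr6:22270175-22270639 with 63 and 42 summit tags, lay in the flank and also in the locus of the neighbouring gene Wnt16. The annotated start nearest to it, 17588 bp away, was not that of Cped1.

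Frmd4a was the opposite case. The gene (gene ID 209630, chr2:4017650-4614043) is the longest of the 8 and its locus also holds Prpf18, yet its best monocyte-only region, chr2:4380961-4381271, had 48 summit tags in WT and 33 in Cxcr3-/- monocytes. Its highest monocyte region was chr2:4318086-4318577, which had 9 and 14 summit tags in CMP/GMP and 143 and 129 in monocytes. The log2 ratio was 3.50 (2.53 to 4.65) in WT, the highest of 25520 regions with a ratio, and 3.76 (2.96 to 4.67) in Cxcr3-/-, the 7th of 29545. This region lies 300.6 kb downstream of start 1 and over 80 kb from any other annotated start of the gene. Frmd4a also held the clearest regions in the other direction, such as chr2:4290431-4290918 with 47, 73, 20 and 22 summit tags and log2 ratios of -1.73 (-2.56 to -0.94) and -1.18 (-1.94 to -0.47).

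**Figure D4:**
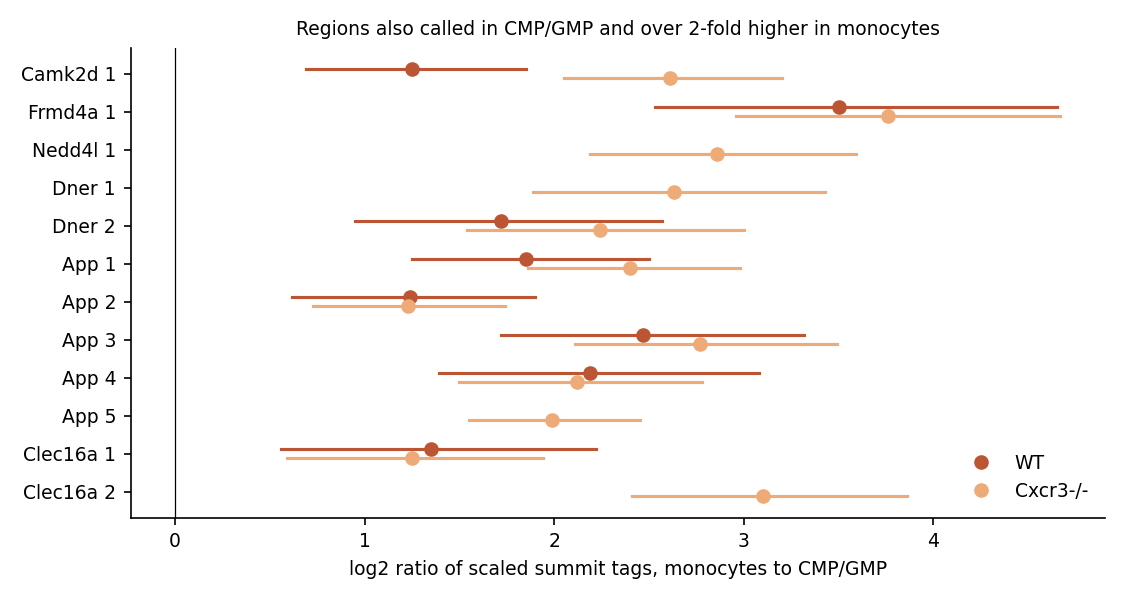
Log2 ratio of scaled summit tags, monocytes to CMP/GMP, with exact 95% counting intervals, for the 12 regions that were also called in CMP/GMP, had a mean of at least 30 tags and were over 2-fold higher in monocytes in each genotype with a ratio. Regions are numbered by position within a gene, and a missing point means that 1 genotype had no ratio; Frmd4a stands highest at 3.50 and 3.76, and App has 5 of the 12.

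Against the background of all loci, the counts describe the choice. Of the 10000 best WT monocyte intervals, 38 lay in the 8 loci and 17 of these (44.7%, exact Clopper-Pearson 95% interval 28.6 to 61.7) shared no base with WT CMP/GMP, where the share over all 10000 was 7.48%. In Cxcr3-/- it was 11 of 38 (28.9%, 15.4 to 45.9) against 7.59%. In the reverse direction, no WT CMP/GMP interval of 17 was CMP/GMP-only (upper limit 19.5%), with 1.97% over all, and none of 15 in Cxcr3-/- (upper limit 21.8%), with 1.37% over all. At least 1 strong region was found in 6 of the 8 loci and in 2.83% of all loci, and at least 2 in 4 of the 8 and in 0.21% of all. WT monocyte-only intervals numbered 2 or more in 7 of the 8 and in 0.233% of all. Nothing is read from these shares, since the loci were chosen on them. The choice had no fixed threshold: Fmo4, which is not among the 8, held 2 strong regions, while Frmd4a and App held 0. In all, 46 loci held 2 or more, so the 8 are not simply the loci with the most strong regions.

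Over the regions of the 8 loci that were called in both cell types with a mean of at least 30 tags, the median log2 ratio of monocytes to CMP/GMP was 0.21 over 47 regions in WT, and 0.03 over all regions. In Cxcr3-/- it was 0.25 over 57 regions, and -0.10 over all. In WT, 9 of the 47 were over 2-fold higher in monocytes and 3 over 2-fold lower, with 10.8% and 6.67% over all regions. In Cxcr3-/- it was 13 and 2 of 57, with 10.9% and 9.77% over all. Most shared regions of these loci thus lay within 2-fold between the cell types, and single regions stood out.

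The comparison of genotypes was not part of the choice. In monocytes, Cxcr3-/- and WT levels at these loci were close: over 79 regions with a mean of at least 30 tags the median log2 ratio of Cxcr3-/- to WT was 0.09, with quartiles at -0.12 and 0.22 and a range from -0.54 to 0.61. Of the 79, 0 were over 2-fold higher in Cxcr3-/- and 0 over 2-fold lower, where the shares over all 30652 regions were 0.264% and 0.401%. The median over all regions was 0.00. Regions in gene-poor surroundings, with 4 to 7 genes per Mb as in the middle range of the 8 loci, had a median of 0.13 over 6699 regions. The 79 regions were not held to that range, so the sets are not matched for gene density. Those at Clec16a, for example, had 16 or more genes per Mb.

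By locus, the median monocyte ratio of Cxcr3-/- to WT ran from -0.12 at Clec16a over 8 regions to 0.20 at App over 14 regions. Camk2d had 0.13 over 15 regions, Cped1 0.17 over 10, Anxa5 0.03 over 6, and Frmd4a, Dner and Nedd4l 0.02, 0.02 and 0.01. The 25 monocyte-only regions with enough tags had a median of 0.06, against 0.02 over all regions of that kind, and 0 of the 25 had an interval above or below 0, where 5.45% and 3.29% of all such regions did. Of the 79, 4 had an interval above 0 and 0 below, where the shares over all regions were 6.03% and 4.44%, so the count above 0 was near the background. Among the 4, chr16:84966973-84967509 in App had 179 summit tags in WT and 191 in Cxcr3-/- monocytes, a log2 ratio of 0.43 (0.13 to 0.74). The Camk2d region chr3:126829780-126830148 had the highest ratio, 0.61 (0.24 to 0.98).

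In CMP/GMP the median log2 ratio of Cxcr3-/- to WT was -0.05 over 51 regions and 0.05 over all regions. Over regions with 4 to 7 genes per Mb it was 0.00, and the 51 were not held to that range. Again 0 of 51 were over 2-fold higher and 0 over 2-fold lower, with 0.139% and 0.136% over all 29452. Locus medians ran from -0.27 at Clec16a over 4 regions to 0.20 at Cped1 over 6. Intervals lay below 0 at 2 regions, both in Camk2d, and above 0 at 1, in Frmd4a at chr2:4555278-4555595, which had 27 summit tags in WT and 70 in Cxcr3-/- CMP/GMP, a log2 ratio of 0.67 (0.01 to 1.37). Over all regions 1.88% had an interval below 0 and 2.67% above, so counts of 2 and 1 among 51 are near the background.

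**Figure D5:**
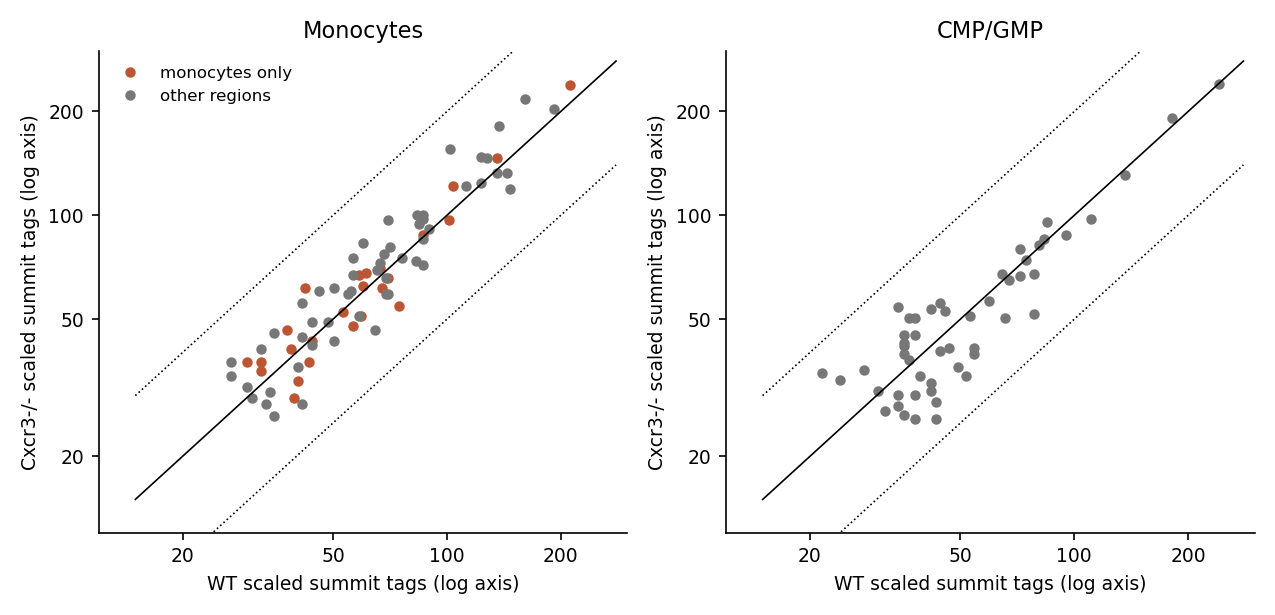
Scaled summit tags in Cxcr3-/- against WT (both log axes), with 1 point per region of the 8 loci called in both with a mean of at least 30 tags, 79 in monocytes (left) and 51 in CMP/GMP (right). The solid line marks equality and the dotted lines a 2-fold difference; the points shown lie between the dotted lines, and regions under the minimum are not shown.

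The summits of the monocyte-only regions lay at most 108 bp apart between the genotypes, with distances near those over all regions of that kind. Such a region is defined by overlapping intervals of both monocyte libraries, which by itself limits the distance. Over the 61 regions the median distance between the WT and the Cxcr3-/- summit was 18 bp, and 54 of them (88.5%) were within 50 bp, where the values over all regions of that kind were 22 bp and 81.5%. Positions relative to starts could be taken for the 48 that lie outside chromosome 18: 1 of them (2.08%) lay within 1 kb of an annotated start, and 5.55% of all such regions did. The median distance was 48.2 kb, against 22 kb over all. Regions of the 8 loci called in all 4 libraries were within 1 kb of a start in 15.9% of cases, and 26% of all such regions were.

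Short sequence motifs were counted, on both strands, in the 10 start windows, since no genome sequence was used here for the distal regions. The AP-1 motif TGANTCA was in 0 of 10 windows and in 7.81% of all 32851, and the C/EBP motif TTNCNNAA in 4 of 10 (Clec16a, Cped1 and Frmd4a) and in 40.7% of all. The MAF motif TGCTGA was in 3 of 10 and in 19.5% of all, the RUNX motif TGTGGT in 1 and in 16.8%, and the ETS motif GGAAGT in 1 and in 23.8%. The longer PU.1 motif AGAGGAAGT contains the ETS motif and was in 0 of 10 windows and in 1.00% of all. With 10 windows these counts describe the sequences only.

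Genes related to the 8 were described from lists that were set with earlier results of these data known. Of 41 relatives by gene family, 31 (75.6%) had at least 1 monocyte-only region, as 42.1% of all protein-coding loci did, and 20 (48.8%) had at least 1 of the CMP/GMP-only kind, as 28.9% of all loci did. The relatives were thus above the share of all loci in both directions. A strong monocyte-only region was found in 3: Notch2, Anxa2 and Bace2. Monocyte-only regions of any level were found in 5 of 7 annexins, which share calcium-dependent membrane binding with Anxa5, 17 regions in all. A region of the CMP/GMP-only kind was held by 1 annexin. Anxa2 had the most of the monocyte-only kind, with 6. Of 8 ubiquitin ligases of the Nedd4 family 7 had such regions, 22 in all, with 4 of the CMP/GMP-only kind. Of 11 App relatives and secretases 8 had them, with 16 against 12, and of 8 Notch ligands and receptors 6, with 10 against 7. Each of the 3 other Camk2 kinase genes had at least 1, none of it strong, and the FERM genes had 6 against 11. No correction was made for the length of a locus.

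The loci most like these 8, ranked by the number of strong monocyte-only regions over the 4 libraries, were Vps13d, Magi2, Lyzl4 and Nav1 with 3 each. The best Vps13d region, chr4:144997102-144997445, had 116 summit tags in WT and 99 in Cxcr3-/- monocytes. That is fewer than the best monocyte-only region of Camk2d and Anxa5 and more than that of each other of the 8. Next came 1810062G17Rik, through the 2 regions it shares with Anxa5. Camk2d, with 4, had more strong regions than any other of the 21887 loci.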

How the data were processed

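Omni-ATAC-seq libraries of 4 groups were analysed, 1 library each. Per the submitters' processing notes, reads were handled with Trim Galore, Bowtie2 and SAMtools on mm10; the peak caller, and whether duplicate sequencing runs were pooled, are not given in the sources used here. Deposited intervals carry a score, a fold enrichment ratio, −log10 p, −log10 q and a summit offset computed by the authors. Each value belongs to its own interval, and intervals were ranked by q within each list. Ratios between lists used summit pileups that were recovered from fold and p and then scaled.

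From the deposited fold and −log10 p a whole-number summit pileup was recovered, assuming a Poisson background and 1 added tag, for all but 2 Cxcr3-/- CMP/GMP and 1 WT monocyte intervals (tolerance 0.001), none in the 8 loci. Overlapping intervals of all lists were merged. Pileups were divided by 0.791, 1.29, 1.11 and 0.879 (CMP/GMP, then monocytes, WT first), each library's median over regions called in all 4 relative to their geometric mean. Ratios needed a mean of 30 tags and calls in both libraries, with exact conditional binomial 95% intervals. Library-only intervals were those of the 10000 best by q with no shared base among the 69521 best of the other cell type. The scripts were tested on simulated data. The members and gene lists were chosen with earlier results of these data known. Per locus the text names up to 3 monocyte-only regions of highest mean level, the start region and regions called only in CMP/GMP; regions called in both cell types were named after their values were seen. A planned motif count in distal regions was replaced by start windows. Exons and introns were not analysed here. Python 3.11.15, numpy 2.4.6, pandas 2.3.3, scipy 1.17.1 and matplotlib 3.10.9 were used.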

Additional observations from a re-analysis of the deposited data

Results flagged for a closer look

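The Camk2d region chr3:126829780-126830148 had Cxcr3-/- to WT log2 ratios of opposite sign in the 2 cell types, 0.61 (95% counting interval 0.24 to 0.98) in monocytes and -0.75 (-1.48 to -0.01) in CMP/GMP. Its summit tags were 34 in WT and 33 in Cxcr3-/- CMP/GMP, and 114 and 137 in the monocyte libraries. It was 1 of 36 regions of the 8 loci with both ratios, and 115 of 20579 regions overall (0.559%) had intervals on opposite sides of 0. The ratios depend on the scaling. With background tags, the median over all regions moved from 0.00 to -0.36 in monocytes and from 0.05 to 0.23 in CMP/GMP. This scaling shifts all regions alike, and both shifts go against the sign of the ratios of this region. Each shift is larger than the distance from 0 of the nearer interval limit, 0.24 and -0.01. Both intervals would thus include 0 under that scaling. The CMP/GMP summit tags were nearly equal, so the ratio of -0.75 comes from the scaling. The difference between the cell types was not tested, since each group has 1 library.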

How the results depend on the processing

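Of the main values, 45 results under another setting kept their direction and stayed within the range taken as equal (1.5 times for counts, the order-statistic 95% interval for medians), 8 moved and 3 changed sign. The 17 WT and 11 Cxcr3-/- monocyte-only intervals (each of 38, with 7.48% and 7.59% over all) became 8 of 15 and 5 of 19 among the best 5000, with 4.82% and 5.64% over all, since fewer intervals enter. The Cxcr3-/- count became 19 of 63 among the best 20000 (11.4% over all) and 17 of 38 with a reciprocal overlap of 50% (13.3% over all). The count of WT CMP/GMP-only intervals (0 of 17) became 1 of 17 with summits within 250 bp (4.47% over all) and 1 of 37 among the best 20000 (5.53% over all). Scaling by background tags gave medians of -0.28 for Cxcr3-/- to WT in monocytes, 0.12 for the same in CMP/GMP, 1.20 for monocytes to CMP/GMP in WT and 0.69 in Cxcr3-/-. It shifts all regions alike: the medians over all regions became -0.36, 0.23, 1.02 and 0.34, and the differences from them did not change. With no minimum pileup the WT ratio of monocytes to CMP/GMP became -0.05, with -0.20 over all regions; the cause was not tested. Scaling by the median of ratios was added after seeing the data. The motif count in distal regions, with its other window, was not run. No paired analysis was possible because each group has 1 library. Depth limits single regions: at 21 to 29 tags, the median summit pileups, a region is measured coarsely, and a region without a call is not shown to be closed.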
